A study of Homo sapiens with 36 samples.

Results

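BE cultures were compared with NC cultures on day 8, with 3 arrays each. These 6 of the 36 arrays of the series were chosen by their source labels. All samples came from WA09, a human embryonic stem cell line, and each array measured the RNA of a whole culture on an Illumina beadchip. The series followed 3 conditions over a differentiation time course, in 12 groups of 3 arrays. The submitters call them melanocyte (BE), neural crest (NC) and dual SMAD inhibition (DSi). BE cultures were given 25 ng/ml BMP4 and 100 nM EDN3, on top of LDN-193189 at 100 nM, SB431542 at 10 uM and CHIR 99021 at 3 uM. NC cultures were given LDN-193189, SB431542 and CHIR 99021 at the same concentrations, without BMP4 and EDN3. DSi cultures were given LDN-193189 and SB431542 alone. LDN-193189 inhibits BMP receptors, SB431542 inhibits TGF-beta and activin receptors, and CHIR 99021 activates WNT signalling by inhibiting the kinase GSK3. The labels list LDN-193189 and BMP4 together for BE and do not say on which days each was present, so the time between the addition of BMP4 and EDN3 and the day 8 collection is not known here. The 2 added factors were given together, and the effects of BMP4 and of EDN3 cannot be told apart. Stem cells had been kept on mouse feeder cells and were plated on matrigel for differentiation. The arrays show what 1 cell line did.

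BMP4 is a secreted ligand that acts through receptor kinases and the transcription factors SMAD1, SMAD5 and SMAD9, whose targets include the ID genes and the pathway's own inhibitors SMAD6, SMAD7 and BAMBI. Endothelin 3, the product of EDN3, binds the receptor EDNRB and promotes the survival, proliferation and differentiation of melanocyte precursors. Melanocytes arise from the neural crest, a SOX10-expressing population from the border of the neural plate that also gives rise to sensory neurons and glia, and their differentiation is led by the transcription factor MITF.

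On the 6 arrays, between 18163 and 18898 probes were detected (38.4% to 39.9% of all probes), and the mean signal before normalization lay between 270.0 and 434.1. The correlation of normalized log2 signals lay between 0.982 and 0.986 within BE day 8, between 0.983 and 0.987 within NC day 8, and between 0.975 and 0.983 between the groups. Each of the 6 arrays was closest to another array of its own group. Levels below are log2 signals of 1 probe per gene, and differences are BE minus NC, tested with limma and Benjamini-Hochberg adjustment over 22850 genes at a threshold of 0.05. A gene said to rise or fall was higher or lower in BE than in NC on the same day. These words do not describe a change over time. A constant of 16 was added to the background-corrected signals, so differences of dim genes are understated. The labels do not say whether the 3 samples of a group were separate differentiations, so p-values measure only how far these samples spread, which may be technical in origin, and the number of arrays limits the precision.

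The cultures of both conditions carried the defining markers of the neural crest at day 8. SOX10, FOXD3, TFAP2A, TFAP2B, PAX3 and NGFR were each detected on all 3 BE and all 3 NC arrays, whereas 1 of the 6 was detected on all 3 DSi arrays of that day. SOX10, a transcription factor required for the crest and for melanocytes and glia, had log2 signals of 10.02, 10.17 and 10.12 in BE cultures and 10.30, 10.41 and 10.13 in NC cultures, and averaged 4.89 ± 0.26 in DSi cultures (SD, n = 3). The BE and NC values overlapped. Of the 7 melanocyte markers, DCT, TYR, TYRP1 and MLANA were not detected on any BE or NC array at day 8. The summed signal of the melanocyte markers lay between 11.56 and 11.88 on the log2 scale in BE cultures and between 10.42 and 10.60 in NC cultures, and DSi cultures of that day, at 10.67 to 10.96, lay above NC. PMEL alone ranged between 11.22 and 11.55 in BE cultures, so it made up most of that sum.

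BE and NC cultures differed at day 8 in 423 of the 22850 genes, 1.85% of those tested. Of these, 285 were higher in BE cultures, which is 1.25% of the genes tested, and 138 were lower, which is 0.604%. Counts of called genes in the lists below stand against these shares. The difference was more than 2-fold for 244 of the 423. The median difference over all genes was -0.009. As a background for statements on overlap, all 3 BE values lay above all 3 NC values for 8.39% of the genes tested and below them for 9.33%. Leaving out NC replicate 2 reduced the count to 254 genes, and leaving out BE replicate 2 reduced it to 277.

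**Figure D1:**
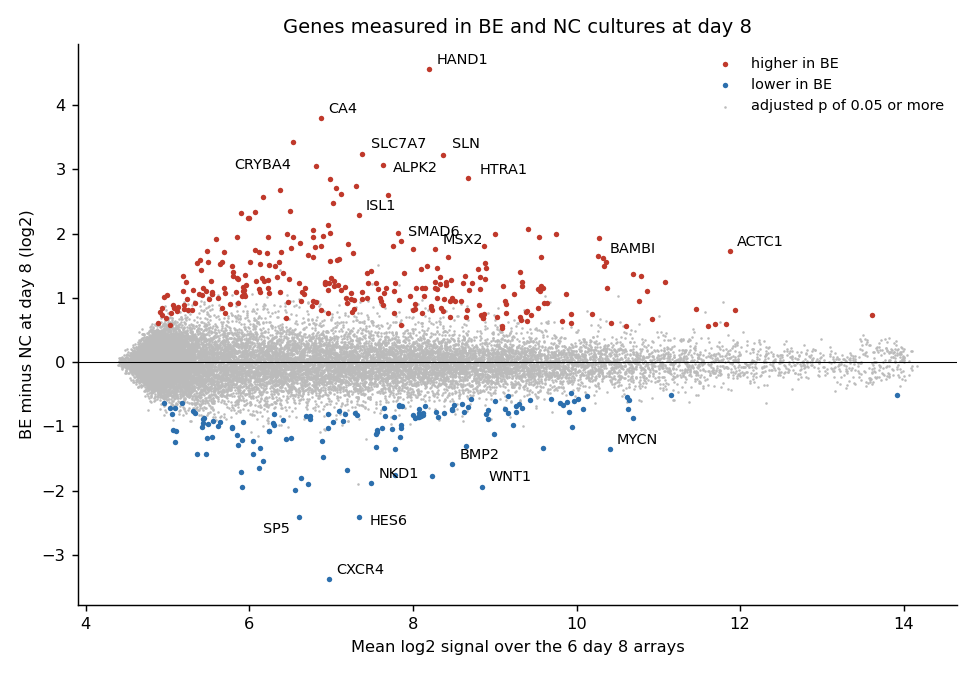
Each point is 1 of 22850 genes, placed by its mean log2 signal over the 6 day 8 arrays (horizontal) and by its BE minus NC difference in log2 units (vertical). Red points are the 285 genes higher in BE cultures and blue points the 138 lower genes. HAND1 is the highest point at 4.56 and CXCR4 the lowest at -3.38.

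The largest difference was that of HAND1, a basic helix-loop-helix transcription factor of the heart, lateral mesoderm and extraembryonic tissues. HAND1 had log2 signals of 10.61, 10.89 and 9.92 in BE cultures, against 6.28, 6.18 and 5.30 in NC cultures. The groups were far apart and replicate 3 was the lowest in both. The difference was 4.56 ± 0.37 (SE; adjusted p = 3.16e-12), which is 23.5-fold. HAND1 was not detected on any DSi array at day 8, where it averaged 4.51 ± 0.04, and averaged 5.71 ± 0.88 in NC cultures at day 6 (SD, n = 3). In bulk RNA, more cells that express a gene and more RNA per cell cannot be told apart, here and for all genes below. The other markers of lateral mesoderm or amnion, GATA4, GATA6 and CDX2, did not pass the filter on detection and were not tested.

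Among the 15 genes with the largest differences, 3 were not detected on any NC array, so their folds are lower bounds. CA4, a membrane-anchored carbonic anhydrase, had 8.73, 8.19 and 9.41 in BE cultures and 5.09, 4.77 and 5.08 in NC cultures, and was at least 12.5-fold higher in BE (adjusted p = 7.47e-13). HOATZ, a gene of motile cilia and flagella, was at least 8.70-fold higher (mean 8.25 in BE and 4.82 in NC, adjusted p = 5.28e-13), and ART3, a member of the ADP-ribosyltransferase family, at least 5.02-fold higher (7.46 in BE and 4.88 in NC, adjusted p = 3.53e-10). These bounds set the BE mean against the lowest signal of a detected probe on the NC arrays. In DSi cultures of the same day, CA4 averaged 8.08.

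The remaining genes of the 15 fall into several kinds of product. SLN, the small peptide sarcolipin that inhibits the sarcoplasmic reticulum calcium pump, had 10.46, 9.98 and 9.49 in BE cultures and 6.60, 7.47 and 6.20 in NC cultures, a difference of 3.22 (adjusted p = 1.12e-08). ALPK2, an alpha-kinase of the heart, differed by 3.08 (adjusted p = 1.45e-12). Genes known from the lens were among them: the crystallin CRYBA4 differed by 3.06, the small heat shock protein CRYAB by 2.85, and the lens fibre membrane protein LIM2 by 2.74. SLC7A7, a transporter subunit for cationic amino acids, differed by 3.25 and the secreted serine protease HTRA1 by 2.87. LAYN, a hyaluronan receptor, differed by 2.71, and DIO2, which converts thyroxine into the active thyroid hormone, by 2.68. COL3A1, the chain of type III collagen, differed by 2.61 and DKK1, a secreted WNT antagonist, by 2.60. For all of these, the lowest BE value lay above the highest NC value.

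The largest fall was that of CXCR4, the receptor of the chemokine CXCL12 that guides migrating crest cells and neurons. CXCR4 had log2 signals of 5.06, 5.17 and 5.60 in BE cultures, against 8.27, 8.87 and 8.84 in NC cultures. It was detected on 1 of 3 BE arrays and on all 3 NC arrays, and the groups were far apart. The difference was -3.38 ± 0.37 (SE; adjusted p = 1.23e-08). NC cultures averaged 6.58 at day 6, so the BE mean of 5.28 at day 8 was also lower than that earlier NC level, a comparison that was not tested.

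Several of the other 14 genes with the most negative differences belong to neurons. HES6, a basic helix-loop-helix protein that promotes neuronal differentiation, had 6.16, 6.36 and 5.88 in BE cultures and 8.34, 9.54 and 7.75 in NC cultures, and fell by 2.41 (adjusted p = 2.41e-07). In BE cultures the adhesion protein NTM was lower than in NC by 1.99, the kinesin KIF21B by 1.90 and the neuronal endopeptidase relative ECEL1 by 1.77. The microtubule-binding proteins DCX and MAP6 were lower by 1.71 and 1.67. GFRA3, the receptor of the neurotrophic factor artemin, was lower by 1.53. NC cultures of day 6 averaged 5.33 for ECEL1, below the BE mean of 7.35 at day 8. For HES6 they averaged 6.94, above the BE mean of 6.13. These levels across days were not tested. VSTM2L fell by 1.94. GLIS3, a zinc finger transcription factor, fell by 1.80, but 1 of its 3 probes had the opposite sign. Members of the WNT and BMP pathways among the 14 are described below.

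**Figure D2:**
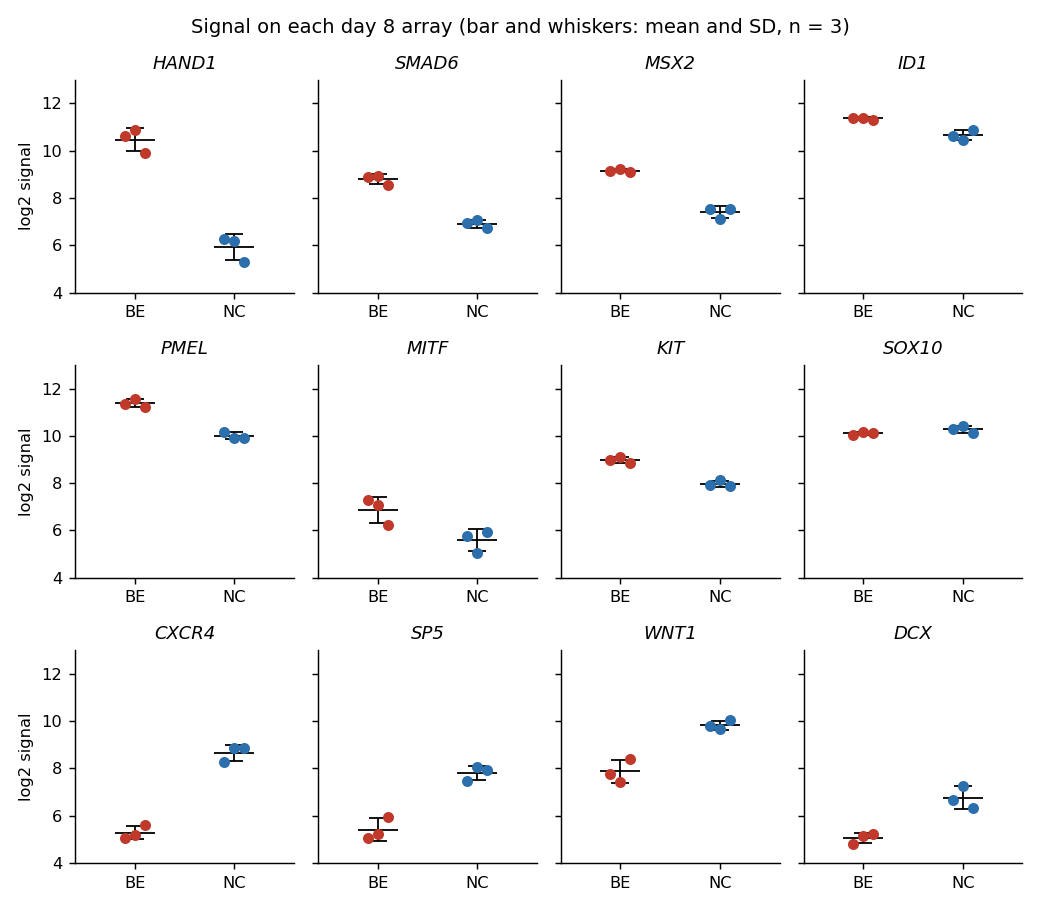
Log2 signal of 12 genes on each of the 6 day 8 arrays, with BE left of NC in each panel. Points are arrays, and the bar and whiskers are the mean and SD (n = 3). HAND1, SMAD6, MSX2, ID1, PMEL, MITF and KIT lie higher in BE, although the difference of ID1 did not pass the test, SOX10 overlaps, and CXCR4, SP5, WNT1 and DCX lie lower in BE.

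Targets of BMP signalling were higher in BE cultures for 7 of 17 tested genes, against 1.25% of all genes, and none was called lower. Their median difference was 0.67, against -0.009 over all genes. SMAD6, an inhibitor of the pathway that its SMAD proteins induce, had 8.88, 8.94 and 8.56 in BE cultures and 6.95, 7.07 and 6.72 in NC cultures. All BE values were above all NC values, and the difference was 1.88 ± 0.25 (SE; adjusted p = 1.99e-06). MSX2, a homeobox gene of the neural plate border, had 9.15, 9.21 and 9.09 in BE cultures and 7.52, 7.10 and 7.55 in NC cultures, a difference of 1.76 (adjusted p = 0.000185). BAMBI, a pseudoreceptor that dampens the pathway, differed by 1.62, the receptor-activated SMAD9 by 1.61, and GATA3, a transcription factor of surface ectoderm, by 1.50. HEY1 and ID2 had the smallest called differences, 1.08 and 0.67.

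Of the ID genes, classical targets that encode inhibitors of basic helix-loop-helix factors, ID1, ID3 and ID4 did not pass the test at day 8. ID1 had 11.40, 11.40 and 11.31 in BE cultures and 10.64, 10.45 and 10.88 in NC cultures. The groups did not overlap, but the difference of 0.71 ± 0.31 (SE) had an adjusted p of 0.363. ID3 differed by 0.15 (adjusted p = 0.932) around a high level in both groups, with means of 11.38 in BE and 11.24 in NC, and ID4 by 0.37 (adjusted p = 0.633) at a level near background. SMAD7, the second inhibitory SMAD, differed by 0.83 (adjusted p = 0.110) and MSX1 by -0.12 (adjusted p = 0.943). The call of ID2 (adjusted p = 0.0439) was lost under 11 of 16 alternative settings, among them the omission of each single replicate, and ID1 was called in a fit of BE and NC arrays alone and with the authors' log2 values. HEY1 lost its call without any one of 5 replicates, BE replicate 3 being the exception, and under median scaling or with the mean over probes.

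Among 28 BMP ligands, receptors and antagonists, 20 were tested, none was called higher and only BMP2 was lower. BMP2, a ligand of the same receptors as BMP4, had 7.51, 7.56 and 7.99 in BE cultures and 9.37, 8.93 and 9.52 in NC cultures, a fall of 1.59 (adjusted p = 6.53e-05). Transcripts of BMP4 itself had 9.42, 9.43 and 9.67 in BE cultures and 9.67, 9.53 and 10.48 in NC cultures. The values overlapped (difference -0.39 ± 0.28 (SE), adjusted p = 0.747). The median of the 20 was 0.08. One of the 20 was called higher with the authors' log2 values, without background correction and with an offset of 50.

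The promoter of BAMBI is shown because that gene rose and its start carries repeated copies of a GC-rich sequence that SMAD1 and SMAD5 can bind, GGCGCC, which reads the same on both strands and is in capitals. The window comes from RefSeq (GRCh38.p14), chr10:28677271-28677570 on the plus strand, from 250 bases before the start of transcription to 50 bases after it:
BAMBI: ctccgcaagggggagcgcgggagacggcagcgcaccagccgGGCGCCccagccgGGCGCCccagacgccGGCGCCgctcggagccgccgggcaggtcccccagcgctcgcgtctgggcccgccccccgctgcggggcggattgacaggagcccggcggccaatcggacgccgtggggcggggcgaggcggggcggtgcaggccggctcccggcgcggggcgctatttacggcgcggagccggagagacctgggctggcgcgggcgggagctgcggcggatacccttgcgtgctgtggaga
It holds 3 copies, which do not overlap. At least 1 copy is present in 19.2% of all 35116 windows in the table and 3 or more in 0.871%. Among the 7 called BMP targets, 6 have windows in the table and 2 of these, BAMBI and GATA3, hold the sequence. A match is a description of letters, and binding was not measured.

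The endothelin pathway was represented by 5 of 7 listed genes, since EDN3 and ECE1 did not pass the filter on detection. EDNRB, the receptor of endothelin 3, was well expressed in both groups, with 10.01, 10.11 and 9.70 in BE cultures and 9.55, 9.93 and 9.09 in NC cultures. The values overlapped (difference 0.42 ± 0.34 (SE), adjusted p = 0.809). EDNRA, the receptor of endothelin 1, did not pass the test either (-0.06 ± 0.27, adjusted p = 0.985). EDN1, the gene of endothelin 1, was higher in BE cultures, with 7.81, 7.94 and 7.90 against 6.36, 5.86 and 5.52 in NC cultures, a difference of 1.97 (adjusted p = 3.23e-05). NC cultures averaged 7.30 at day 6 and 5.91 at day 8, and BE cultures 7.88 at day 8. These levels across days were not tested.

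Of 22 tested specifiers of the neural crest and plate border, none was called higher and 2 were lower, against 0.604% of all genes, with a median of -0.20. The count of lower genes was 4 with the authors' log2 values, without background correction and in a fit of BE and NC arrays alone, and 1 without BE replicate 1. MYCN, a MYC family factor of proliferating neural progenitors, fell by 1.36 (adjusted p = 0.00947), a call lost without BE replicate 1. TFAP2A differed by -0.01 ± 0.36 (SE), PAX3 by -0.22 ± 0.25 and FOXD3 by -0.66 ± 0.23, with adjusted p of 0.997, 0.879 and 0.162. TFAP2B had 8.70, 8.82 and 8.73 in BE cultures and 9.53, 9.78 and 9.51 in NC cultures. Those groups did not overlap, yet the adjusted p of 0.0679 missed the threshold. The gene was called under 7 of 16 alternative settings, among them the authors' log2 values and a fit with the replicate number included. With the mean over its 2 probes, however, the difference was -0.46 (adjusted p = 0.367).

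Of the melanocyte and melanosome genes, 4 of 20 tested were higher in BE cultures, against 1.25% of all genes, and none was lower. The median of the 20 was 0.08, and 2 were called without BE replicate 1. PMEL, the fibril protein of early melanosomes, had 11.34, 11.55 and 11.22 in BE cultures and 10.18, 9.91 and 9.92 in NC cultures, a difference of 1.37 ± 0.20 (SE; adjusted p = 1.07e-05). PMEL was also strong without melanocyte induction, averaging 10.49 in DSi cultures of day 8 and 10.62 in NC cultures of day 6. KIT, the receptor of stem cell factor that melanoblasts need, had 8.96, 9.10 and 8.85 in BE cultures and 7.92, 8.12 and 7.90 in NC cultures, a difference of 0.99 (adjusted p = 0.00189). MITF had 7.30, 7.06 and 6.23 in BE cultures and 5.78, 5.06 and 5.92 in NC cultures. The groups were close without overlapping, at 6.23 and 5.92, and NC cultures were no higher than DSi cultures of day 8, which averaged 5.83 (SD 0.42). The difference of MITF was 1.28 ± 0.28 (SE; adjusted p = 0.00485), and its call was lost without BE replicate 1, without NC replicate 2 and with the authors' log2 values. TBX2, a T-box factor that melanocytes also express, differed by 1.70 (adjusted p = 0.0135), a call lost without BE replicate 1, BE replicate 2 or NC replicate 3. The enzymes and membrane proteins of the mature pigment cell were not detected on any array of either group: TYR, TYRP1, DCT, MLANA and GPNMB had means between 4.41 and 4.83 in BE cultures and between 4.40 and 4.80 in NC cultures.

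WNT target genes differed in both directions, with 1 of 12 tested genes higher, 3 lower and a median of -0.17. SP5, a zinc finger factor directly induced by WNT signalling, had 5.05, 5.22 and 5.95 in BE cultures and 7.48, 8.04 and 7.93 in NC cultures, a fall of 2.41 ± 0.30 (SE; adjusted p = 4.85e-07). Its BE level lay between the NC level and that of DSi cultures without CHIR 99021, which averaged 4.78. NKD1, a feedback inhibitor of the pathway, had 6.39, 6.10 and 7.14 in BE cultures and 8.21, 8.52 and 8.55 in NC cultures, and fell by 1.88 (adjusted p = 6.47e-07). The related factor SP8 fell by 1.20 (adjusted p = 0.000523). Unlike SP5, SP8 was highest in DSi cultures of day 8, with a mean of 10.78, against 7.05 in NC and 5.85 in BE cultures. The antagonist DKK1 was the member higher in BE, with 9.29, 9.17 and 8.54 in BE cultures and 6.81, 6.30 and 6.09 in NC cultures. The BE mean lay near the 9.28 of NC cultures at day 6, and the NC mean of 6.40 at day 8 lay below that earlier level, a comparison that was not tested. AXIN2, another feedback inhibitor, differed by -0.61 (adjusted p = 0.0506), just outside the threshold. It was called under 6 alternatives, a fit with the replicate number included. LEF1, a nuclear effector, differed by 0.03 ± 0.27 (SE; adjusted p = 0.994). The ligand gene WNT1, a marker of the dorsal neural tube and early crest, had 7.77, 7.44 and 8.40 in BE cultures and 9.77, 9.64 and 10.02 in NC cultures, a fall of 1.94 (adjusted p = 0.000335). WNT1 was not detected in DSi cultures of day 8.

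The promoter of SP5 is shown because it had the largest fall of the list and carries several copies of the core CTTTGA, read on both strands (TCAAAG on the other), that TCF and LEF factors recognise. The copies are in capitals in the RefSeq window (GRCh38.p14), chr2:170715087-170715386 on the plus strand:
SP5: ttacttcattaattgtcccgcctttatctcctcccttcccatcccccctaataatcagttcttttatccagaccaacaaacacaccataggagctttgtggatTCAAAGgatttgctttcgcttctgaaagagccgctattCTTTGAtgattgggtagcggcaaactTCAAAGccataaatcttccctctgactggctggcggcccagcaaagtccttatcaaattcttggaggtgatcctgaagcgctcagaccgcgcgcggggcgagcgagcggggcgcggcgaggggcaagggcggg
The first bases of the 3 copies lie 147, 109 and 83 bases before the start of transcription. At least 1 copy is present in 12.9% of all windows and 3 or more in 0.0997%. Binding was not measured here either.

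Sensory neuron and proneural genes also moved both ways, with 2 of 21 tested genes higher, 2 lower and a median of -0.10. ISL1, a LIM homeobox factor of sensory neurons, heart progenitors and lateral mesoderm, had 8.18, 8.95 and 8.31 in BE cultures and 5.84, 6.83 and 5.92 in NC cultures, a difference of 2.28 ± 0.28 (SE; adjusted p = 3.01e-07). PRPH, the intermediate filament peripherin of peripheral neurons, differed by 1.85 (adjusted p = 4.08e-06). PRDM12, a regulator of pain-sensing neurons, was not detected on any BE array and on 2 NC arrays, and was at least 1.46-fold lower in BE (4.46 in BE and 5.71 in NC, adjusted p = 1.94e-05). NEUROG1, the proneural factor of early sensory neurons, had 5.66, 5.97 and 6.04 in BE cultures and 6.44, 7.82 and 6.35 in NC cultures. Its difference of -0.98 missed the threshold (adjusted p = 0.0611) and was called under 8 of 16 alternatives, a fit with the replicate number included. POU4F1, another sensory neuron factor, averaged 8.83 in BE and 8.76 in NC, and the values overlapped. Of the 4 sensory neuron markers, POU4F1, ISL1, NEUROG1 and PRPH, 2 were called higher and 0 lower. Their summed signal lay between 10.03 and 10.10 in BE cultures and between 9.12 and 9.74 in NC cultures. Pan-neuronal genes had 2 lower members of 16 and none called higher. DCX had 4.81, 5.13 and 5.21 in BE cultures and 6.68, 7.27 and 6.32 in NC cultures, and was detected on 1 BE array and 3 NC arrays. The RNA-binding protein ELAVL2 fell by 1.22 (adjusted p = 0.0298), a call lost in 5 of the 6 omissions of 1 replicate, all but that of BE replicate 3, with the authors' log2 values and without background correction.

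The Notch pathway, which holds back neuronal differentiation, had 1 higher and 2 lower genes among 16 tested, with a median of -0.33. Under median scaling 4 were lower. HEY2, a Notch and BMP target, had 7.06, 7.54 and 7.13 in BE cultures and 5.03, 5.83 and 5.75 in NC cultures, a difference of 1.71 (adjusted p = 5.74e-05). HES6 was lower, as given above, and the receptor NOTCH1 fell by 0.78 (adjusted p = 0.0118), a call lost without BE replicate 1, BE replicate 3, NC replicate 1 or NC replicate 2.

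**Figure D3:**
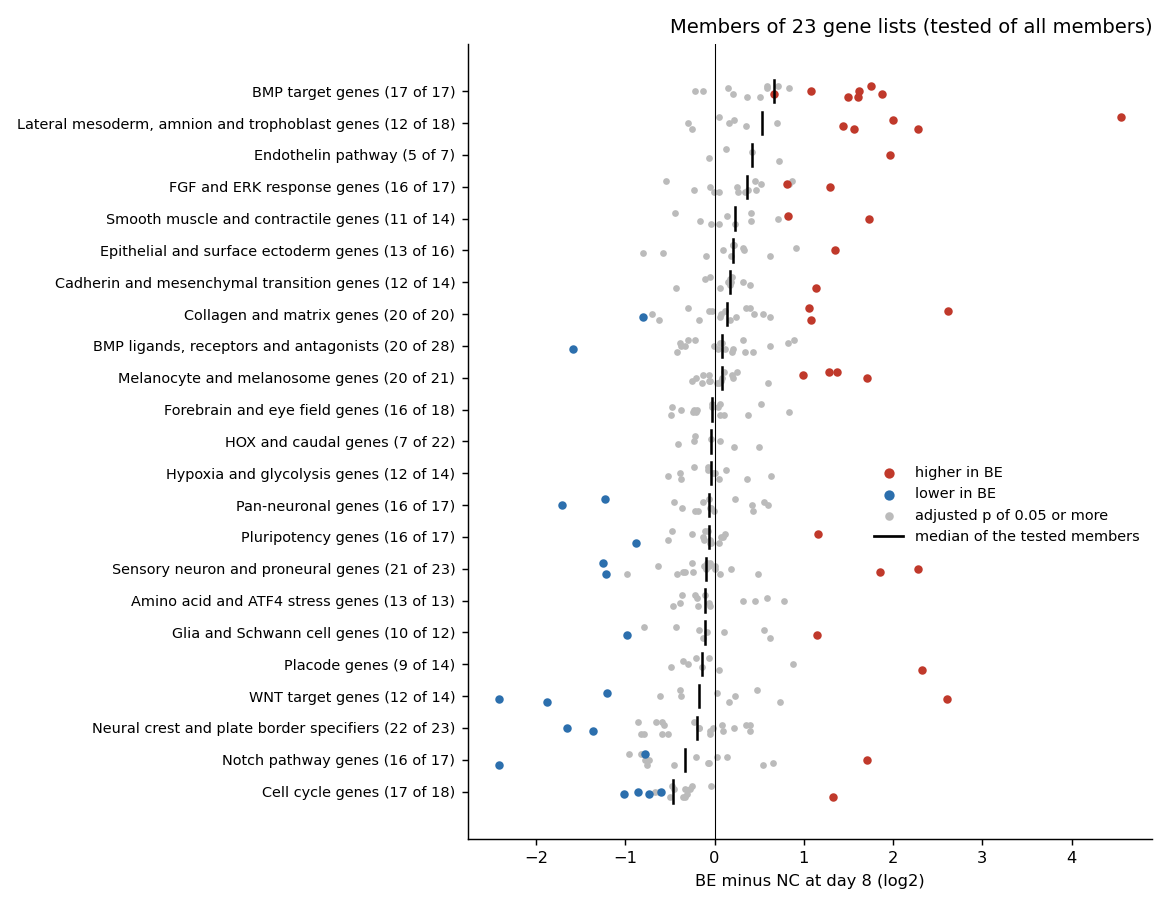
BE minus NC difference at day 8 in log2 units (horizontal) for the tested members of 23 gene lists (vertical, with the numbers tested and listed). Red points are genes higher in BE, blue points are lower genes, grey points did not pass the test, and the black bar is the list's median. Medians run between 0.67 for BMP targets and -0.46 for cell cycle genes.

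Genes of lateral mesoderm, amnion and trophoblast were called higher for 5 of 12 tested, against 1.25% of all genes, with none lower and a median of 0.53. The count was 3 with the authors' log2 values and 3 without NC replicate 3. Besides HAND1 and ISL1, they were IGFBP3, a binding protein of insulin-like growth factors (difference 2.00, adjusted p = 0.00151), VTCN1, an immune checkpoint protein of the trophoblast and amnion (1.56, adjusted p = 0.00730), and the T-box factor TBX3. TBX3 had 5.94, 6.46 and 5.98 in BE cultures, was not detected on any NC array, and was at least 1.99-fold higher (6.12 in BE and 4.69 in NC, adjusted p = 0.000246). These are values of 1 of its 2 probes. The other had the opposite sign, and with the mean over both the difference was 0.61 and was not called (adjusted p = 0.126). The call of IGFBP3 was lost without NC replicate 3, that of VTCN1 without BE replicate 2 or NC replicate 3 and in a fit of BE and NC arrays alone, and both TBX3 and VTCN1 lost theirs with the authors' log2 values. CDX2, GATA4, GATA6, FOXF1, MESP1 and BMP10 did not pass the filter on detection. Of the 4 trophoblast markers, CGA, CGB, KRT7 and VTCN1, 1 was called higher and 1 was detected on all 3 BE arrays. Their summed signal lay between 7.12 and 8.43 in BE cultures and between 6.58 and 7.52 in NC cultures.

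Epithelial genes had 1 higher member of 13, the simple-epithelium keratin KRT8, with 11.25, 11.47 and 11.67 in BE cultures and 10.30, 10.22 and 9.82 in NC cultures (difference 1.35, adjusted p = 0.00850). That call was lost without replicate 3 of either group, and the list had 2 higher genes without background correction and with a stricter filter on detection. KRT5 and KRT14, keratins of stratified epithelium, did not pass the filter on detection. Of 9 placode genes, 1 was called at day 8, and 2 in a fit of BE and NC arrays alone. PITX1, a homeobox gene of the oral ectoderm and hindlimb, had 6.65, 7.29 and 7.23 in BE cultures, was not detected on any NC array, and was at least 3.80-fold higher (7.06 in BE and 4.74 in NC, adjusted p = 2.75e-11). The summed signal of the surface epithelium markers overlapped, with a range of 9.14 to 10.14 in BE cultures and 8.27 to 10.00 in NC cultures.

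Matrix genes had 3 higher members and 1 lower member of 20, with a median of 0.14. COL3A1 had 8.04, 8.48 and 8.77 in BE cultures and 5.66, 5.52 and 6.28 in NC cultures. COL6A3 and COL1A1, chains of the collagens VI and I, differed by 1.08 and 1.05. LAMA4, a laminin chain, was not detected on any BE array and was at least 1.22-fold lower (4.65 in BE and 5.45 in NC, adjusted p = 0.0224). CDH11, a mesenchymal cadherin, differed by 1.14 and was the single called gene of 12 in the cadherin and mesenchymal transition list. Contractile genes had 2 of 11 called higher: ACTC1, the cardiac alpha-actin, with 12.58, 12.92 and 12.71 in BE cultures and 10.76, 11.23 and 11.03 in NC cultures (difference 1.73, adjusted p = 0.000867), and the tropomyosin TPM1 (0.83). The calls of COL6A3 and CDH11 were lost without NC replicate 2, and that of COL6A3 also without NC replicate 1, BE replicate 2 or BE replicate 3. CDH11 lost its call under median scaling as well (0.98, adjusted p = 0.0521), and COL6A3 under 5 more settings, among them the authors' log2 values and no background correction. LAMA4 lost its call without any one of the 6 replicates and under median scaling, and TPM1 without NC replicate 1 or BE replicate 3.

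Cell cycle genes had 4 lower members and 1 higher member of 17, and the lowest median of the 23 lists, -0.46. CDC20, an activator of the anaphase-promoting complex, had 10.24, 10.37 and 10.18 in BE cultures and 10.90, 11.14 and 10.96 in NC cultures, a fall of 0.74 (adjusted p = 0.00178). The mitotic cyclin CCNB2 fell by 0.59 (adjusted p = 0.00292), the replication helicase subunit MCM2 by 0.85 and the proliferation marker MKI67 by 1.01. CDKN1C, an inhibitor of cyclin-dependent kinases, had 9.47, 9.72 and 9.27 in BE cultures and 8.10, 8.33 and 8.05 in NC cultures, a difference of 1.33 (adjusted p = 0.000979). The call of MCM2 was lost without BE replicate 1 or NC replicate 2, and that of MKI67 without any one replicate except BE replicate 3 and under 4 other settings, the authors' log2 values among them.

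Response genes of FGF and ERK signalling had 2 of 16 called higher, the phosphatase DUSP6 (1.29) and IER3 (0.81). Both calls were near the threshold: DUSP6 lost it without any one of the 6 replicates, and IER3 without any BE replicate or NC replicate 2. Each also lost it under 5 other settings, and neither was called with the authors' log2 values. IER3 averaged 8.62 in NC cultures at day 6, and 7.82 in NC and 8.635 in BE cultures at day 8. Pluripotency genes had PODXL, a sialomucin that many epithelia also express, higher by 1.16 (adjusted p = 1.66e-05) and the DNA methyltransferase DNMT3B lower by 0.87 (adjusted p = 0.00777), of 16 tested, the second call being lost without BE replicate 1 or NC replicate 2, with the authors' log2 values and with the mean over probes. PODXL averaged 9.16 in NC cultures at day 6, and 7.69 in NC and 8.85 in BE cultures at day 8. The levels of IER3 and PODXL across days were not tested. Glial genes had the myelin protein PMP22 higher by 1.15 and the fatty acid binding protein FABP7 lower by 0.98, of 10 tested. The call of FABP7 was lost in each omission of 1 replicate, and that of PMP22 in all but the omission of BE replicate 3. FABP7 also lost it without a filter on detection, and PMP22 under median scaling, with the mean over probes and in eBayes without a trend. No member was called, with limma, among 16 forebrain and eye field genes, 7 HOX and caudal genes, 13 amino acid and ATF4 stress genes and 12 hypoxia and glycolysis genes. At an unadjusted p under 0.05 these lists had 2, 0, 3 and 2 genes, in that order, against 2284 of all 22850 genes. PAX6, a forebrain and eye factor, averaged 9.19 in BE cultures, 9.08 in NC cultures and 10.63 in DSi cultures of day 8.

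The same contrast was measured 3 days later on other arrays, so the comparisons at day 8 and day 11 share no sample. At day 11, 2000 genes differed (8.75% of those tested), 1070 higher in BE (4.68%) and 930 lower (4.07%). Of the 285 genes higher in BE at day 8, 183 were again higher at day 11, which is 64.2% of the day 8 genes and 17.1% of the day 11 genes. A further 97 were not called, 5 were called lower, and 254 kept a positive sign. Of the 138 genes lower at day 8, 68 were again lower, which is 49.3% of the day 8 genes and 7.31% of the day 11 genes, and 122 kept a negative sign. Across the 423 genes, chosen by their day 8 difference, the differences at the 2 days had a Pearson r of 0.770, and across all 22850 genes r was 0.391. Genes are not independent replicates, and these coefficients are descriptions.

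**Figure D4:**
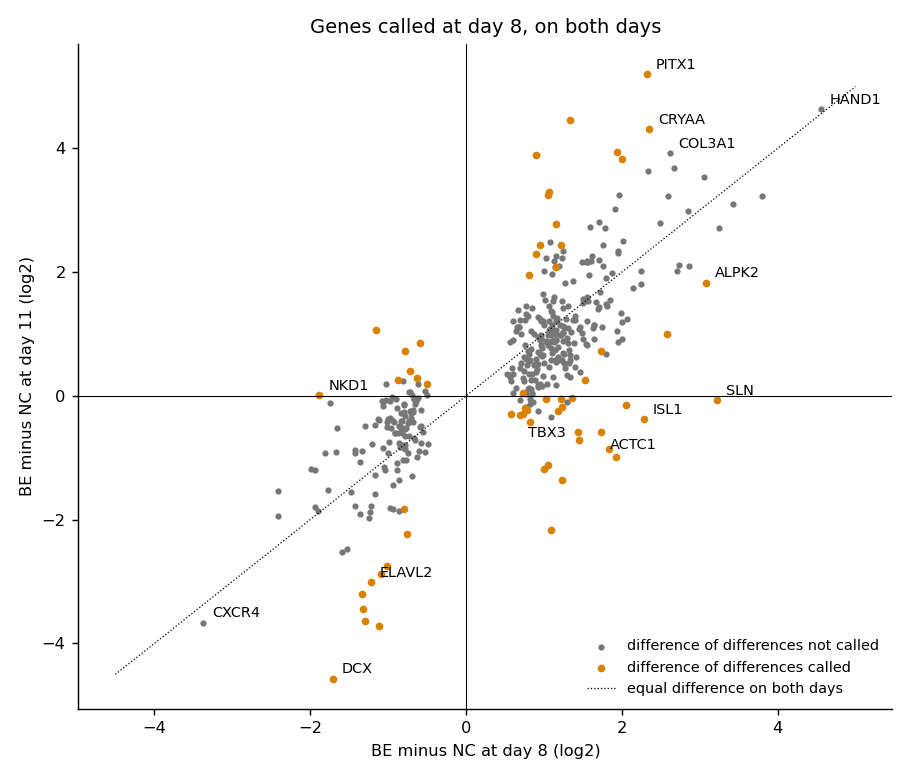
BE minus NC difference at day 8 (horizontal) and at day 11 (vertical), both in log2 units, for the 423 genes called at day 8. Orange points are genes whose difference changed between the days by the test of the difference itself, grey points are the others, and the dotted line marks equal differences. HAND1 and CXCR4 lie near that line, whereas SLN, ISL1, TBX3 and ACTC1 are near or below 0 at day 11 and PITX1 and DCX lie further out.

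The difference itself changed between day 8 and day 11 for 549 genes, 2.4% of those tested, with 254 more positive (1.11%) and 295 more negative (1.29%) at day 11. Among genes called at day 8, it changed for 42 of the 285 higher ones and for 18 of the 138 lower ones. HAND1 had a difference of 4.56 at day 8 and 4.63 at day 11, and SMAD6 had 1.88 and 1.99. The BMP target list as a whole had 7 of 17 genes higher at day 8 and 13 of 17 at day 11, with medians of 0.67 and 1.39. ID1 differed by 0.71 at day 8 and 1.47 at day 11, and ID3 by 0.15 and 1.08. The change of these 2 differences was not called (adjusted p = 0.610 and 0.188).

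A group of genes was higher at day 8 without being so at day 11. SLN differed by 3.22 at day 8 and by -0.07 at day 11, and the change was called (adjusted p = 6.30e-06). ISL1 averaged 8.48 in BE and 6.20 in NC at day 8, and 10.31 in BE and 10.68 in NC at day 11. ACTC1 differed by 1.73 and -0.59 at the 2 days and TBX3 by 1.44 and -0.58. NKD1, lower at day 8 by 1.88, differed by 0.01 at day 11.

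Other genes separated later. The pigment genes undetected at day 8 differed at day 11 by 5.90 for TYRP1, 5.40 for MLANA, 4.48 for DCT, 4.48 for GPNMB and 4.28 for TYR. On the NC arrays of that day TYRP1 was detected on 1, MLANA on 3 and the others on 2. DCT and TYRP1 were also detected on all 3 DSi arrays of day 11. They averaged 9.78 and 7.16 there, against 9.90 and 10.73 in BE cultures. MLANA and GPNMB were not detected on any DSi array of that day, and TYR on 1. Of the 20 melanocyte genes, 18 were then higher and 1 was lower, against 4.68% and 4.07% of all genes. The lower one was OCA2, a melanosome channel protein, which fell by 0.61 (adjusted p = 0.0241). MITF differed by 1.28 at day 8 and 1.83 at day 11 and KIT by 0.99 and 1.66, and neither change was called (adjusted p = 0.744 and 0.355). On the neuronal side, DCX differed by -1.71 at day 8 and -4.57 at day 11, NEUROG1 by -0.98 and -4.06, POU4F1 by 0.06 and -4.33, and the neuronal protein STMN2 by -0.06 and -4.91. Pan-neuronal genes had 2 of 16 lower members at day 8 and 12 of 16 at day 11.

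**Figure D5:**
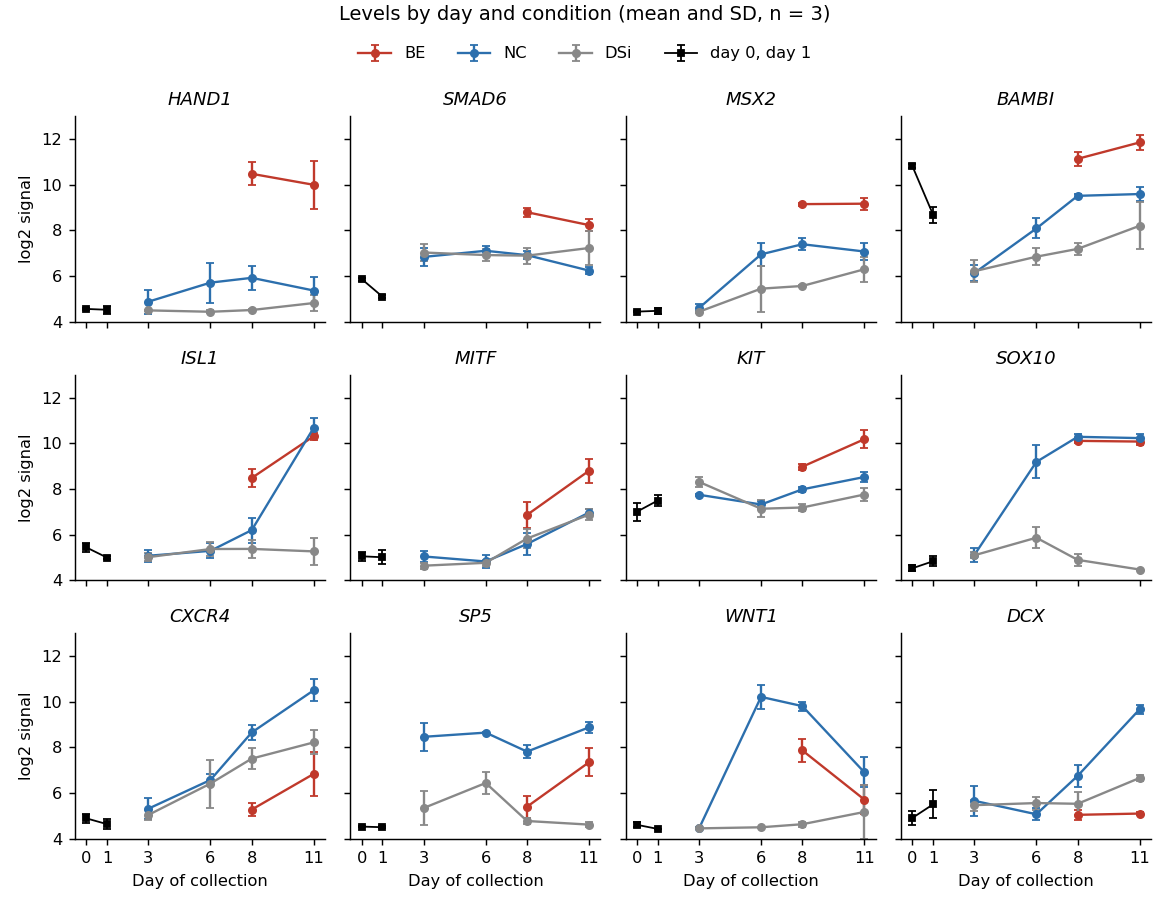
Mean log2 signal and SD (n = 3) of 12 genes by day of collection (horizontal), in BE, NC and DSi cultures and in the day 0 and day 1 cultures. In NC cultures, CXCR4 is 6.58 at day 6, 8.66 at day 8 and 10.51 at day 11, whereas BE cultures have 5.28 at day 8 and 6.84 at day 11. SOX10 overlaps between BE and NC at day 8.

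The levels over time place the day 8 differences beside what NC cultures did between day 6 and day 8. BAMBI averaged 6.13, 8.08 and 9.51 in NC cultures at days 3, 6 and 8, and 11.13 in BE cultures at day 8. WNT1 averaged 10.22 at day 6 and 9.81 at day 8 in NC cultures, and 7.87 in BE cultures at day 8. ISL1 averaged 5.29 and 6.20 in NC cultures at days 6 and 8, and 8.48 in BE cultures at day 8. DCX averaged 5.07 in NC cultures at day 6 and 6.76 at day 8, and BE cultures of day 8, at 5.05, lay close to the day 6 mean of NC. These levels across days are descriptions and were not tested.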

How the data were processed

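Expression was measured on Illumina beadchips with biotinylated cRNA, 3 arrays per group. For 47323 probes, the authors deposited a mean bead signal per array, an intensity on a linear scale, beside a detection p-value, as named per the file headers. For 34687 genes they also deposited log2 values, which the values themselves show to be quantile normalized (median 6.723 on every array). Partek is named in the submitters' processing notes with no role. Array version and slides were not given in the sources used here, so slide could not be tested as a batch.

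Signals came without gene names. A gene of the authors' table was therefore assigned the consecutive probes whose signals yielded its values on all 36 arrays through 1 increasing function per array, with a root mean square difference of at most 7.3e-05 on the log2 scale. All 34687 genes were assigned, 26219 of them to 1 probe. Symbols followed RefSeq's gene table: 17757 were current, 2733 were updated and 14197 were kept.

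Background was corrected by normexp (limma 3.58.1, R 4.3.3; offset 16), taking the negative controls from the detection p-values, followed by quantile normalization and log2. "Detected" means a detection p under 0.05. Of the probes detected on 3 or more arrays (29106), the brightest stood for each gene (22850 genes). One mean per group was fitted over 36 arrays (24 residual degrees of freedom), with moderated two-sided tests (eBayes with a trend). Summed marker signals are log2 of the sum over the markers. The fit was tested on simulated data.

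Genes were named by rule: the 15 largest and 15 smallest called differences with current symbols, called members of the lists, a fixed set of pathway genes, and the 5 largest and 5 smallest called changes of the difference between days. EDN3, in that set, was not tested. Some genes named by the rule are not reported here. The groups, lists and rule were chosen with earlier results of these data known. Replicate numbers came from the labels. Deviations of same-numbered samples correlated at 0.172, 0.206 and 0.156 at day 11, so the numbers pair those samples, and at 0.168, 0.091 and 0.188 at day 8, where 1 pair lay under 0.1. On both days each lay above the highest correlation with another number, which at day 8 was -0.022, 0.006 and -0.063. The main tests did not take the number into account. Alternatives covered normalization, background, offset, filter, probes per gene, samples in the fit, the variance prior, the block and each replicate left out.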

Additional observations from a re-analysis of the deposited data

Results flagged for a closer look

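These genes were singled out because the BE minus NC difference at day 11 differed from that at day 8 by limma's test of the change itself. Values are the day 11 difference minus the day 8 difference, on the log2 scale. The change was most positive for pigment cell genes that were undetected in both groups at day 8, with 6.03 for TYRP1, 5.46 for MLANA, 4.43 for DCT, 4.34 for TYR and 4.27 for GPNMB. These 5 values subtract a day 8 difference that was not measurable, so they rest on the day 11 difference alone. PITX1 changed by 2.88, NKD1 by 1.89, PMP22 by 1.63 and PODXL by 0.92. Of the genes higher in BE at day 8, the change was -1.25 for ALPK2, -1.58 for ART3, -2.02 for TBX3, -2.32 for ACTC1, -2.66 for ISL1 and -3.29 for SLN. The neuronal genes ELAVL2, DCX, NEUROG1, NEUROD1, POU4F1 and STMN2 changed by -1.79, -2.86, -3.08, -3.13, -4.40 and -4.85. The remaining changes were -4.32 for PPP1R17, -4.40 for RAB26 and -4.55 for TNNC2. The differences of these 3 genes at day 8 were -0.02, 0.67 and -0.08, none of which passed the test. PPP1R17 and TNNC2 were not detected in either group at day 8, so their changes too rest on day 11 alone. PITX1, ART3 and TBX3 were not detected on any NC array at day 8, and TBX3 had probes of opposite sign there, so the sizes of these fitted changes are not exact. NEUROD1 and RAB26 were not detected on any BE array at day 11, so their changes are fitted values with no exact size, and their day 11 differences have a bound only, at least 9.30-fold and 9.54-fold lower in BE (means of 4.86 in BE and 8.34 in NC, and of 4.64 in BE and 8.38 in NC).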

How the results depend on the processing

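The day 8 count of 423 genes lay between 373 and 523 under the settings that kept all replicates, and between 254 and 313 when 1 replicate was left out. The count without NC day 8 replicate 2 was 254 and without BE day 8 replicate 2 it was 277. Such fits have fewer samples. The replicate block gave 523 genes at day 8, where each sample correlated best with its own number and where TFAP2B, NEUROG1 and AXIN2 were called with the block (adjusted p = 0.0301, 0.0303 and 0.0352), and 2300 at day 11. At day 11 the count of 2000 lay between 1712 and 2300, and between 1453 and 1710 with 1 replicate left out. The change of the difference gave 497 to 650 genes, and 431 to 541 with 1 replicate left out, against 549. Of 73 named genes called at day 8, 51 were called under every setting, 22 lost the call under at least 1, and no named gene changed direction past the threshold. ID1, AXIN2, NEUROG1 and TFAP2B, not called, were called under at least 1 setting. Sizes also depended on the setting, and the folds above hold for the background-corrected signals of the brightest probe. With the authors' log2 values the day 8 difference was 3.42 for HAND1, 0.92 for DIO2, -1.50 for CXCR4 and -0.39 for DCX. These 4 lay nearer 0 than in the main fit, whereas TPM1 differed by 0.89, against 0.83. Dim genes are limited by signal over background: a difference between genes undetected in both groups is not measurable.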

Other observations

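The following gene groups were put together after their values had been seen, so no test of a group is given. Lens genes were higher at day 8 beyond those described above. The set was LIM2 and the tested genes with crystallin names, 13 together, CRYBG2 included. Of these, 5 were called higher in BE cultures and none lower, against 1.25% and 0.604% of all genes. CRYAA, an alpha crystallin of the lens, averaged 7.68 in BE and 5.32 in NC, a difference of 2.35 (adjusted p = 1.59e-07), and CRYBA1, not detected on any NC array, was at least 1.44-fold higher (5.65 in BE and 4.76 in NC, adjusted p = 0.0313). At day 11, 7 of the 13 were higher, against 4.68% of all genes. CRYBB1, detected on 1 BE array and no NC array at day 8, was at least 13.1-fold higher in BE at day 11 (adjusted p = 7.96e-22). The lens factors PROX1, MAF and FOXE3 did not pass the test at day 8.

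Of 30 named genes of the sarcomere and heart muscle, 24 were tested, and MYH7, ACTN2, PLN, TBX5, TNNI1 and MYH11 were not. Of the 24, 13 were higher in BE at day 8 and none was lower, with a median of 0.87. Over all genes, 1.25% were higher and 0.604% lower. The members were chosen after their values had been seen, so setting them against these shares is not a test of the group. ANKRD1, a stress-responsive muscle protein, differed by 2.00, the atrial light chain MYL4 by 1.63, the muscle alpha-actinin ACTN3 by 1.46 and the filamin FLNC by 1.24. NKX2-5, MYL2 and MYL7 were not detected on any BE or NC array at day 8. TNNT2, TNNI3, TNNC1, MYH6, MYL3, ACTA2, TAGLN and CNN1 did not pass the test at day 8 either. At day 11, 8 of the 24 were higher and 1 was lower, with a median of 0.21. HRC, a calcium-binding protein of the sarcoplasmic reticulum, differed by 1.06 at day 8 and by -1.11 at day 11.

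KITLG, the ligand of KIT, was itself higher in BE at day 8 (difference 1.81, adjusted p = 0.000109), as was ASIP, an antagonist of the melanocortin receptor of melanocytes, which was not detected on any NC array (at least 1.12-fold, 5.30 in BE and 4.52 in NC, adjusted p = 0.00329). Of 14 tested WNT ligands and R-spondins, WNT1, RSPO3 and WNT10B were lower, the second by 1.47 and the third by 1.07, and none was called higher. TLX2, a homeobox gene of the autonomic lineage, differed by 2.05 at day 8 and by -0.15 at day 11, and BEX1 by 1.93 and -0.99.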
